A study of Mus musculus with 2 samples.

Results

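Ly6C low patrolling monocytes were taken here as the barcodes of CD45+ cells from brown adipose tissue (BAT) that carried at least 2 unique molecular identifiers (UMIs, 1 per captured transcript) of Ace, Treml4, Cd300e and Adgre4 together and none of Ly6c2. A member also held at most 1 UMI of C1qa, C1qb and C1qc, under 2% of its UMIs from S100a8 and S100a9, and none of Cd3e or Cd79a. This rule left 456 members among 4295 barcodes kept for 200 or more genes and no more than 10% UMIs of mitochondrial origin, of 4978 barcodes in all. They came from 2 libraries, 1 per condition, with 250 members in the control and 206 in the AdipoΔ/Δ library. Both libraries were made from male C57Bl/6 mice aged 16 weeks by the labels (the study's text describes younger mice), and both groups of mice carried AdipoQ-CreERT2 and ATGLfl/fl, so that floxed alleles and a Cre driven by an adipocyte promoter were shared. Control mice received vehicle. AdipoΔ/Δ mice received 200 µL of tamoxifen at 10 mg/ml every other day for 1 week, and all rested for 2 weeks before BAT was taken. How many mice gave cells to each library is not stated in the sources used here. With 1 library per condition no difference has a replicate check. Intervals in parentheses are exact 95% intervals and cover counting error only.

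Ly6C low monocytes are short-lived blood phagocytes that crawl along the inside of small vessels and clear debris from the endothelium. They arise from Ly6C high classical monocytes, and the nuclear receptor Nr4a1 is needed for their formation and survival. The integrin chain encoded by Itgal, which pairs with Itgb2 to form LFA-1, and the fractalkine receptor Cx3cr1 are known from this crawling. ATGL, the product of Pnpla2, releases fatty acids from triglycerides in adipocytes. Since the Cre acts in adipocytes and the sort kept CD45+ cells, Pnpla2 in members (42.4 CPM in the control and 45.8 CPM in the AdipoΔ/Δ library) does not check the deletion. CPM here are UMIs summed over the members of a library and scaled to the same total of UMIs.

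The barcodes chosen by the rule also carried the genes expected of the label that the rule did not use. Of the 5 label markers, Ace, Cd300e and Treml4 belong to the rule, whereas Eno3 and Nr4a1 do not. Ace (chromosome 11, 105967945 to 105989964, plus strand, GRCm38) encodes angiotensin-converting enzyme, and Treml4 (chromosome 17, 48264295 to 48275360, plus strand) a receptor of the TREM family. Eno3 (chromosome 11, 70657202 to 70662513, plus strand) encodes the beta subunit of enolase, and Nr4a1 (chromosome 15, 101254269 to 101274795, plus strand) the nuclear receptor named above. All 4 are protein-coding. The 250 bases before the RefSeq start of each are shown because all 4 are label markers. Ace and Treml4 separate members from classical monocytes by the rule itself. The region before Nr4a1 also holds repeated copies of an element known to bind CREB and AP-1 factors. Capitals mark TGCGTCA, the CRE-like element, and GGGCGGGG, the SP1 box, on either strand. The windows, in GRCm38.p6 and read 5′ to 3′ along the gene, are chr15:101266596-101266845 for Nr4a1, chr11:105967698-105967947 for Ace (1 of 2 starts), chr17:48264045-48264294 for Treml4 and chr11:70656926-70657175 for Eno3, all on the plus strand.
Nr4a1: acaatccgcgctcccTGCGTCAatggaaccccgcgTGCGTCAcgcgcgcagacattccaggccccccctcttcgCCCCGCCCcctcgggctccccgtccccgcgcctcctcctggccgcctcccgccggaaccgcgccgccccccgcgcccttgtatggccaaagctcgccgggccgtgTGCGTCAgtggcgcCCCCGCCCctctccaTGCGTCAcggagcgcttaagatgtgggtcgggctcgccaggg
Ace: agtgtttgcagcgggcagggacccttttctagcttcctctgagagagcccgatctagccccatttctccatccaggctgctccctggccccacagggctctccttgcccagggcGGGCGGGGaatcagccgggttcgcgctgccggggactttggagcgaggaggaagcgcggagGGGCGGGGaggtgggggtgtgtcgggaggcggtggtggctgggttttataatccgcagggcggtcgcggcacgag
Treml4: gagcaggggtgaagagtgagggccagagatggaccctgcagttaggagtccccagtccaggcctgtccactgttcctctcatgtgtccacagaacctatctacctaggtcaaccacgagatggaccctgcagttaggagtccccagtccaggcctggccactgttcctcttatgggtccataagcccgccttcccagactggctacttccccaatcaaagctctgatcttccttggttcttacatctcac
Eno3: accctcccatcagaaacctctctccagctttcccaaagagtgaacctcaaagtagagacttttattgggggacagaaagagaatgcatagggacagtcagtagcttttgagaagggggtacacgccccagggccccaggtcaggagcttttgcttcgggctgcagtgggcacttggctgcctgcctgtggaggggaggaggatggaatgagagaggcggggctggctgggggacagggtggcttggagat

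The CRE-like element occurred 4 times in the Nr4a1 window, beginning 235, 215, 71 and 42 bases before the start, and in none of the other 3 windows. This element was added to the search after the Nr4a1 sequence had been seen. It stood in 1.78% of 27025 promoters of the same length. Among 2799 promoters of genes with enough UMIs in members and classical monocytes (the tested genes defined below) the share was 3.25%. The SP1 box was present 2 times each in the Nr4a1 and Ace windows, in 16.3% of all promoters and in 32.3% of those 2799. The GC content was 74.4% for Nr4a1, 67.2% for Ace, 55.6% for Treml4 and 57.2% for Eno3, against a median of 52% over all promoters. Other motifs searched on both strands were AAAGGTCA (NR4A response element, 1.31% of promoters), TTGCNNAA (C/EBP, 9.55%), TGACGTCA (CRE core, 1.62%), CCACACCC (KLF box, 3.19%), ATGCAAAT (octamer, 1.61%) and GAGGAAGT (PU.1 core, 2.44%). None of these 6 was in the 4 windows, which says only that these letters are absent there.

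Members were the shallow part of the monocytes. Their median was 3300.5 UMIs and 1309 detected genes in the control and 2624 UMIs and 1144.5 genes in the AdipoΔ/Δ library. Intermediate monocytes, which pass the same gate but carry Ly6c2, had medians of 7451 and 6751 UMIs, and classical monocytes (at least 2 UMIs of Ly6c2 and none of the 4 rule genes) 7553 and 6948 UMIs. The classical class also asked for a UMI of Csf1r or Ccr2, almost none of T and NK cell genes and none of Siglech. It was thus chosen in part on Csf1r and Ccr2, unlike the members. Since the rule asks for 0 UMIs of Ly6c2, shallow cells meet that part more easily. Gm42418, a locus that overlaps ribosomal RNA, held 15.2% of member UMIs in the control and 8.72% in the AdipoΔ/Δ library, and it was lower in the latter in intermediate (9.44% and 5.08%) and classical monocytes (8.77% and 4.81%) too. The libraries shared 4 cell barcodes, of which 0 were members.

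The share of members among kept barcodes was nearly the same in both libraries. It was 11.0% (9.72 to 12.3) in the control and 10.2% (8.93 to 11.6) in the AdipoΔ/Δ library, a ratio of 0.931 (0.771 to 1.12). Their neighbours were less even. Classical monocytes made up 8.64% and 3.72% of kept barcodes (ratio 0.430, 0.325 to 0.564), intermediate monocytes 5.62% and 3.13% (0.556, 0.405 to 0.758), and C1q macrophages, with at least 5 UMIs of the 3 C1q genes, 3.33% and 11.3% (3.39, 2.61 to 4.46). Thus members were 43.5% (39.4 to 47.6) of the 3 monocyte classes in the control and 59.9% (54.5 to 65.1) in the AdipoΔ/Δ library, 1.38 times as much (1.14 to 1.66). Among barcodes outside the C1q macrophages the ratio was 1.02 (0.840 to 1.23). A share of barcodes in a sort says nothing about the number of cells in the tissue.

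Itgal, not used by the rule, was found in 229 of 250 control and 179 of 206 AdipoΔ/Δ members. Its level was 1533 CPM (1454 to 1615) and 1379.6 CPM (1295 to 1468), against 774 and 601 CPM in intermediate and 184 and 161 CPM in classical monocytes. Nr4a1 was at 830 CPM (772 to 891) and 684 CPM (625 to 747), with 495 and 390 CPM in intermediate and 121 and 64.5 CPM in classical monocytes. Both genes therefore stepped down from members through intermediate to classical monocytes in each library. Eno3 was at 298 and 269 CPM in members, with 55.8 and 46.4 CPM in intermediate cells. Classical monocytes held only 3 and 4 UMIs of Eno3, which gives folds of 147 (49.6 to 715) and 39.6 (15.2 to 147). The rule genes behaved as the rule makes them: Ace was at 506 and 542 CPM, Treml4 at 452 and 444 CPM, Cd300e at 190 and 240 CPM and Adgre4 at 633 and 620 CPM.

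**Figure D1:**
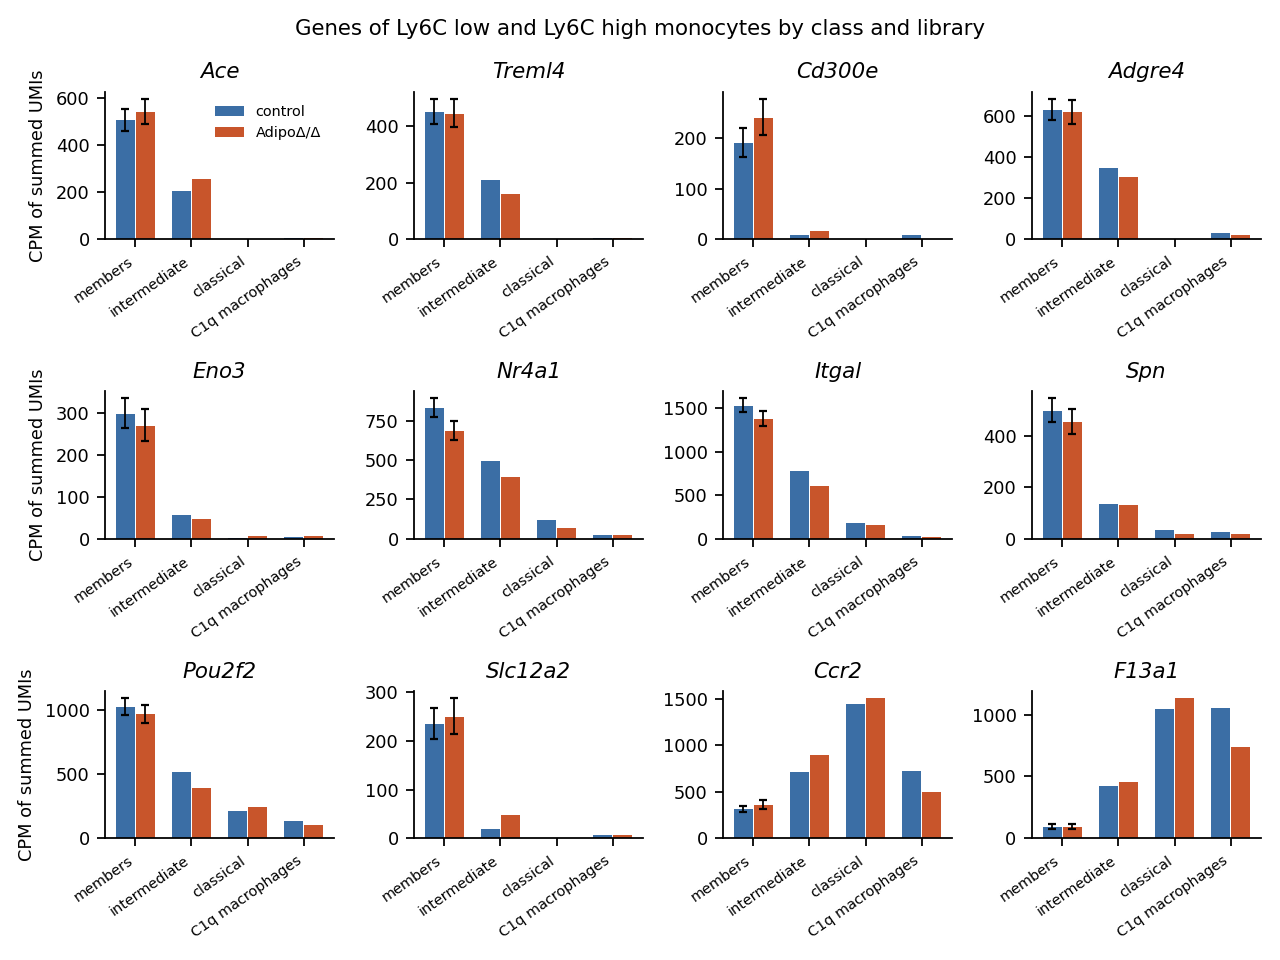
CPM of summed UMIs (y axis, from 0) of 12 genes in members, intermediate monocytes, classical monocytes and C1q macrophages of the control (blue) and AdipoΔ/Δ (orange) library; black bars on members are 95% Poisson intervals. Itgal is at 1533 and 1379.6 CPM in members and at 184 and 161 CPM in classical monocytes, while Ccr2 runs the other way. Ace, Treml4, Cd300e and Adgre4 are at 0 in classical monocytes by definition, and a UMI of Ccr2 or Csf1r was asked of that class.

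Members just inside the rule had lower summed levels of Itgal and Nr4a1 than those well inside it. How alike the members of a band were was not measured. With exactly 2 UMIs of the 4 rule genes (40 control and 45 AdipoΔ/Δ members), Itgal was at 1066 and 516 CPM and Nr4a1 at 717 and 453 CPM. With 5 or more (140 and 112 members), Itgal was at 1677 and 1785 CPM and Nr4a1 at 889 and 830 CPM. Barcodes with a single UMI of these genes, just outside, had 490 and 293 CPM of Itgal and 314 and 131 CPM of Nr4a1, and 892 and 869 CPM of Ccr2. H2-Ab1, a chain of MHC class II, and Retnla, a secreted protein of alternatively activated macrophages, went the other way in the AdipoΔ/Δ library. H2-Ab1 was at 4005 CPM with 2 rule gene UMIs and 585 CPM with 5 or more, and Retnla at 4307 and 203 CPM. The Retnla value with 2 UMIs rested on 684 UMIs and on few cells. In that band 2 members held 586 and 413 UMIs of Retnla, Lyz1, Fcrls and Ecm1 together. In the control H2-Ab1 took no steady course, at 517 CPM with 2, 2277 CPM with 3 to 4 and 468 CPM with 5 or more. The barcodes with 5 or more are deeper (medians of 4059.5 and 3268 UMIs), and they serve below as a stricter set that was chosen after the data had been seen.

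**Figure D2:**
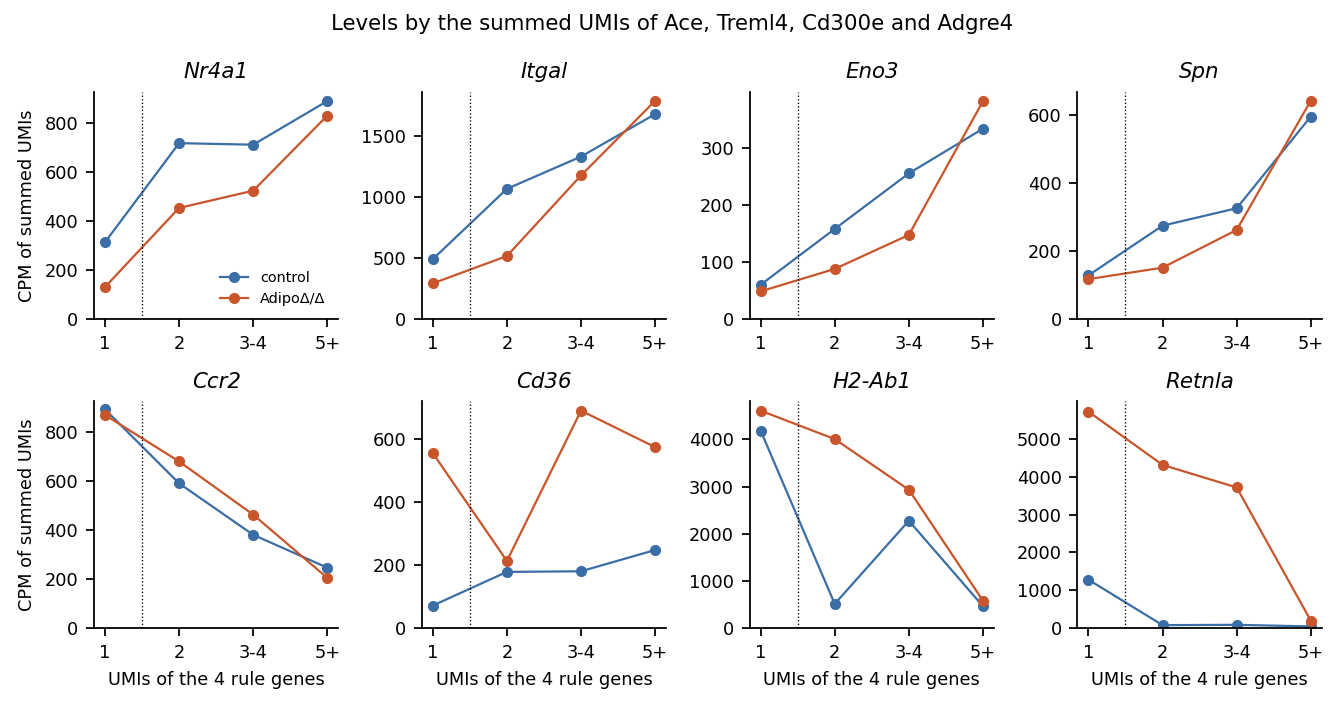
CPM of summed UMIs (y axis, from 0) of 8 genes against the UMIs of the 4 rule genes per barcode (x axis) in the control (blue) and AdipoΔ/Δ (orange) library; the dotted line is the threshold of the rule. Nr4a1, Itgal, Eno3 and Spn are highest and Ccr2 lowest at 5 or more UMIs in both libraries, and Retnla in the AdipoΔ/Δ library is at 4307 CPM with 2 UMIs and 203 CPM with 5 or more. A few AdipoΔ/Δ members held most of these Retnla UMIs.

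Against classical monocytes of the same library, 266 of 3482 genes tested for size (7.64%) were at least 2-fold higher in members in both libraries, and 106 (3.04%) at least 2-fold lower. Tested for size means at least 50 UMIs over both classes in each library, without the rule genes, and no gene was past 2-fold in opposite directions. The rule chose members on this contrast, so these counts describe the difference and nothing was inferred from them. The median over the tested genes was 0.08 on the log2 scale in the control and 0.14 in the AdipoΔ/Δ library.

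The 10 genes furthest above classical monocytes by the smaller of the 2 folds were Cd36, Cyth3, Bcl2a1b, Eno3, Ear2, Hes1, Ltb, Slc12a2, Cd274 and Tcf7l2. Slc12a2, a sodium, potassium and chloride cotransporter, was at 234 and 248 CPM in members and had 0 UMIs in classical monocytes. Against a floor of 3 UMIs per library it was at least 115-fold and 48.7-fold higher. Tcf7l2, a transcription factor of Wnt signalling, was at 106 and 107 CPM in members, with 0 and 1 UMI in classical monocytes. Ear2, an eosinophil-associated ribonuclease, was at 566 and 746 CPM and was 29.8-fold (20.4 to 45.4) and 36.6-fold (20.8 to 71.3) above classical monocytes. Cyth3, an exchange factor for ARF proteins, was at 141 and 126 CPM in members and 2.71 and 1.70 CPM in classical monocytes. Hes1, a repressor downstream of Notch, was at 146 and 107 CPM in members and 6.09 and 3.40 CPM in classical monocytes. Cd274, which encodes PD-L1, was at 76.0 and 112 CPM, and Ltb, the membrane anchor of lymphotoxin, at 105 and 112 CPM. Ltb was at 560 and 702 CPM in T cells, which make it.

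Among the 10 furthest below were Chil3, AI839979, Cxcl10, Mmp8, Stxbp6, F13a1, Vcan, Ifit3 and Ifit1. Vcan, the proteoglycan versican, was at 6.52 and 4.16 CPM in members and 199 and 121 CPM in classical monocytes. F13a1, the A chain of coagulation factor XIII, was at 90.2 and 94.3 CPM against 1046 and 1132 CPM, and Mmp8, a collagenase, at 9.78 and 5.55 CPM against 164 and 146 CPM. Chil3, a chitinase-like protein of classical monocytes, was at 199 and 92.9 CPM against 1161 and 1166 CPM. Ccr2, the receptor that brings monocytes out of the marrow and into tissue, was at 314 and 363 CPM against 1452 and 1509 CPM. The classical class was chosen in part on Ccr2, so part of this difference comes from its definition.

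**Figure D3:**
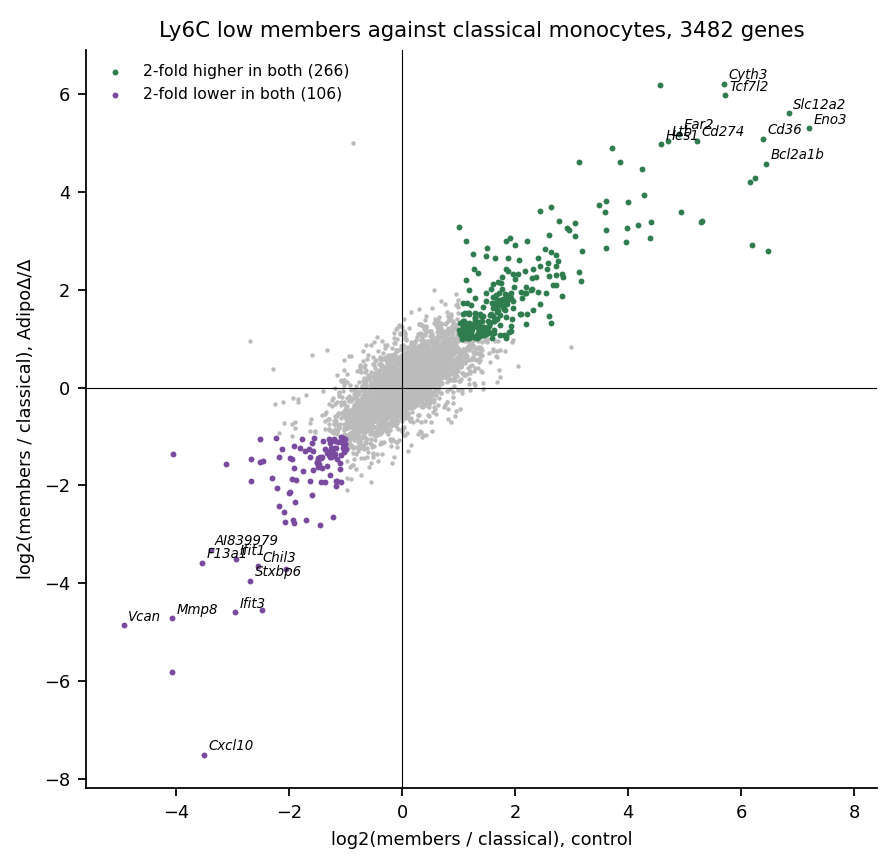
Each point is 1 of 3482 genes, by its log2 ratio of members over classical monocytes in the control (x axis) and AdipoΔ/Δ library (y axis); green and purple mark genes at least 2-fold higher (266) or lower (106) in both, and 0 UMIs were set to 3. Named are genes of the fixed rule, with Slc12a2 and Eno3 at the upper right and Vcan and Cxcl10 at the lower left.

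The lists were read beside the 7.64% of all tested genes that were higher and the 3.04% that were lower in both libraries. Of 20 surface and effector genes of patrolling monocytes, 18 were higher in both libraries and 0 lower, with median log2 ratios of 3.73 and 3.53. This list was chosen with earlier results of these data known, and the rule chose members on the same contrast. The count is therefore a description and no independent check of identity. Spn, the sialophorin CD43 by which these cells are sorted, was at 499 and 455 CPM in members and 34.5 and 18.7 CPM in classical monocytes. Fcgr4, an activating receptor for IgG, was at 149 and 179 CPM against 9.48 and 18.7 CPM. Dusp16, a MAP kinase phosphatase, was at 154 and 233 CPM against 2.03 and 11.9 CPM. Of 14 adhesion genes, 5 were higher (Itgal, Itgax, Itga4, Itgb1, Spn) and 1 lower. Itgax, the integrin CD11c, was at 108 CPM in both libraries against 2.71 and 10.2 CPM. Of 6 chemoattractant receptors, 5 were higher and 1 lower, namely Ccr2, on which the classical class was chosen in part. S1pr5, a sphingosine 1-phosphate receptor, was at 112 and 123 CPM against 4.74 and 1.70 CPM, and Cx3cr1 was 3.06-fold (2.47 to 3.81) and 3.11-fold (2.40 to 4.05) higher.

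Of 20 transcription factors, 6 were higher in both libraries and 1 lower. Pou2f2, the lymphoid and monocyte octamer factor OCT2, was at 1026 and 968 CPM against 212 and 243 CPM. Cebpb, a C/EBP factor on which these monocytes depend, was at 2548 and 2137 CPM against 983 and 1031 CPM, and Klf4 at 571 and 455 CPM against 175 and 154 CPM. Nfe2l2, the regulator of antioxidant genes, was also higher, and Cebpd, at 64.1 and 61.0 CPM against 181 and 178 CPM, was lower. Nr4a2 and Nr4a3, the relatives of Nr4a1, had no more than 2.77 CPM in members of either library. Of 12 survival genes 6 were higher and 0 lower. They were Csf1r, the receptor for CSF1, at 1045 and 1108 CPM against 392 and 431 CPM, with Bcl2, Birc3 and 3 Bcl2a1 genes. Bcl2a1a, Bcl2a1b and Bcl2a1d are near-identical copies, so the split of UMIs among them is uncertain.

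Interferon-stimulated genes lay the other way. Of 19 tested, 0 were higher and 8 lower in both libraries, with median log2 ratios of -0.88 in the control and -1.55 in the AdipoΔ/Δ library. Isg15, a ubiquitin-like protein, was at 35.8 and 20.8 CPM in members and 148 and 272 CPM in classical monocytes. Ifit3 was at 4.34 and 5.55 CPM against 33.9 and 134 CPM, and Cxcl10, a chemokine for T cells, had 0 UMIs and 1 UMI in members against 37.2 and 253 CPM in classical monocytes. Within members, 0 of 13 such genes were past 2-fold between libraries, with a median log2 ratio of 0.18. Over all genes tested between libraries 2.82% were higher and 0.417% lower, so this 0 does not set them apart. Of 17 classical monocyte genes 11 were lower and 1, Clec4e, higher. Lyz2, the lysozyme of myeloid cells, was at 11432 and 11042 CPM against 27827 and 29427 CPM.

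For the other lists, against classical monocytes in both libraries, 1 of 6 Fc receptor genes was higher and 1 lower, 2 of 10 genes of clearance and pattern recognition were higher (Cd36 and Tlr7), and 0 of 4 complement genes passed 2-fold. Of 5 vessel and coagulation genes 2 were higher and 1, F13a1, lower. Pdgfb, a growth factor for mural cells of vessels, was at 97.8 and 101 CPM in members and 7.45 and 3.40 CPM in classical monocytes. Of 16 lipid genes 2 were higher (Cd36 and Fabp4) and 1, Npc2, lower, and of 16 immediate early and stress genes 3 were higher and 0 lower. Of 6 class II genes 4 were higher and 0 lower. Few members carried most of this signal. In the control 25 of 250 members held 90.1% of the UMIs of H2-Aa, H2-Ab1 and H2-Eb1. In the AdipoΔ/Δ library 22 of 206 held 92.8%. Of 5 cytokine genes 1 was higher, Il1b at 241 and 269 CPM in members and 64.3 and 32.3 CPM in classical monocytes, and 1 lower.

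Markers of other cells differed in level between lists. The 12 T and NK cell genes summed to 48.9 CPM in the control and 61.0 CPM in the AdipoΔ/Δ library, against 5500 CPM in control T cells. Of 8 B cell genes 4 were at 0 in each library, and Ighm made up most of the sum of 169 and 204 CPM. Endothelial and adipocyte genes were at 0 or near it apart from Fabp4 and Lipe, and Adipoq, Ucp1, Kdr and Cldn5 were at 0 in both. The 5 erythroid genes summed to 59.7 and 9.71 CPM, and the 11 neutrophil genes to 392 and 218 CPM, with S100a8 at 138 and 41.6 CPM and S100a9 at 142 and 65.2 CPM. The 17 macrophage genes had the highest sum, 2130.0 and 2103 CPM, of which Apoe made up 1604 and 1037 CPM, Cd68 202 and 257 CPM and Adgre1 117 and 158 CPM. Of these genes 6 were at 0 in the control and 1 in the AdipoΔ/Δ library, where Mrc1 was at 65.2 CPM (7.60 CPM in the control) and Fcrls at 103 CPM (3.26 CPM). The 8 dendritic cell genes summed to 42.4 and 88.7 CPM, the 8 platelet genes to 5.43 and 33.3 CPM, and the 8 genes of dividing cells to 18.5 and 129 CPM. Of the 93 AdipoΔ/Δ UMIs of dividing cell genes, 3 members held 35, 25 and 17. In each library 14 members held any.

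Between the libraries, 115 of 4072 genes tested for size in members (2.82%) were at least 2-fold higher in AdipoΔ/Δ and 17 (0.417%) at least 2-fold lower, with at least 50 UMIs in both libraries together. The median log2 ratio of all 4072 was 0.10. List counts between libraries are read beside these shares of 2.82% and 0.417%, at which a short list holds few or none. The balance depends on the scaling, since DESeq2 size factors gave 73 higher and 48 lower and TMM 79 higher and 41 lower. In 49 of the 115 higher genes, over 50% of the AdipoΔ/Δ UMIs came from 5 members, and 67 were also past 2-fold with equal weight for each cell. For the 17 lower genes these counts were 0 and 11. With the stricter set of 5 or more rule gene UMIs, 50 of 2890 genes were higher (1.73%) and 16 lower, and 27 of the 50 were among the 115.

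Identity genes, like most tested genes, differed by less than 2-fold between libraries, apart from 1. Of the 20 patrolling genes only Cd9 was past 2-fold, and the median log2 ratio of the list was 0.10, as for all genes. Over all tested genes 2.82% were higher and 0.417% lower, so 1 gene in 20 does not set the list apart. The ratio of AdipoΔ/Δ over control was 0.904 (0.748 to 1.09) for Eno3, 0.912 (0.789 to 1.05) for Spn and 0.824 (0.734 to 0.924) for Nr4a1. In the stricter set Nr4a1 was at 889 and 830 CPM, a ratio of 0.933 (0.813 to 1.07), and that of Itgal was 1.06 (0.967 to 1.17), with an interval of 0.829 to 0.977 over all members. Klf4 had a ratio of 0.796 (0.691 to 0.915) over all members and 0.961 (0.812 to 1.14) in the stricter set. Cx3cr1 was at 276 and 401 CPM, a ratio of 1.45 (1.22 to 1.73), and at 1.66 (1.36 to 2.03) in the stricter set. The paper describes crossing the floxed line with CX3CR1gfp and TdTomato reporter mice. The labels do not say which Cx3cr1 alleles the mice of either library carried. Whether the alleles differed between libraries was not tested, so this ratio cannot be read as a difference in regulation.

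Cd36, the scavenger receptor and fatty acid translocase (chromosome 5, 17781690 to 17888801, minus strand), was higher in AdipoΔ/Δ members in every set examined. It had 208 UMIs in 101 of 250 control members and 375 UMIs in 109 of 206 AdipoΔ/Δ members, which is 226 CPM (196 to 259) and 520 CPM (469 to 575), a ratio of 2.30 (1.94 to 2.74). After thinning each cell to 1000 UMIs, 23.9% and 34.9% of members held a Cd36 UMI, against 0.585% and 2.76% of T cells, which should lack it. The 5 richest members held 17.3% and 31.5% of the UMIs. With 5 or more rule gene UMIs the ratio was 2.31 (1.88 to 2.85). With equal weight per cell the log2 ratio was 0.78, short of 2-fold. Cd36 was higher in AdipoΔ/Δ also in intermediate monocytes (26.4 and 101 CPM), classical monocytes (2.71 and 15.3 CPM) and C1q macrophages (693 and 1323 CPM).

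Cd9, a tetraspanin of the cell surface, followed the same course, at 185 and 391 CPM (ratio 2.12, 1.74 to 2.58) over all members and 2.06 (1.64 to 2.60) in the stricter set. Among chemoattractant receptors Cxcr4, which holds leukocytes in the marrow, was at 101 and 180 CPM over all members (ratio 1.78, 1.36 to 2.35) and 102 and 247 CPM in the stricter set (2.43, 1.76 to 3.39). Fpr2, a receptor for formylated peptides, was at 136 and 186 CPM (1.37, 1.06 to 1.76) and at 1.82 (1.36 to 2.45) in the stricter set. Of the 5 heat shock genes listed, 3 were past 2-fold higher and 2 were not. Hspa1a was at 33.7 and 136 CPM (4.04, 2.67 to 6.26), Hspa1b at 102 and 220 CPM (2.16, 1.66 to 2.82) and Hsp90aa1 at 228 and 485 CPM (2.13, 1.79 to 2.54). Their ratios in the stricter set were 3.69, 2.17 and 2.05. Hsp90aa1 was higher in AdipoΔ/Δ T cells too, at 167 and 421 CPM. Hspa1a and Hspa1b are near-identical copies, so their split is uncertain. Hspa8 was at 1275 and 1899.6 CPM (1.49, 1.38 to 1.61), or 1.29 in the stricter set, and Dnajb1 at 45.6 and 51.3 CPM (1.12, 0.703 to 1.79), or 1.03. Of 17 immediate early and stress genes 5 were past 2-fold higher and 0 lower. The 20 genes of this list summed to 4566 CPM in control and 6306 CPM in AdipoΔ/Δ members. In T cells their sum was higher in AdipoΔ/Δ too, at 2544 and 3986 CPM. Egr1, an immediate early factor, was at 15.2 and 95.7 CPM, and 71.0% of its AdipoΔ/Δ UMIs lay in 5 members.

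Lipid genes were less uniform. Of 19 tested 4 were past 2-fold higher (Cd36, Lpl, Plin2 and Fabp5) and 0 lower, with a median log2 ratio of 0.26. Plin2, which coats lipid droplets, was at 90.2 and 226 CPM (2.51, 1.91 to 3.31), and at 1.81 (1.26 to 2.60) in the stricter set. Lipa, the acid lipase of lysosomes, was at 119 and 220 CPM (1.85, 1.44 to 2.37). Lpl, lipoprotein lipase, was at 26.1 CPM in 12 control members and 401 CPM in 39 AdipoΔ/Δ members (15.4, 10.1 to 24.4). The 5 richest members held 65.1% of its AdipoΔ/Δ UMIs, and in T cells it stood at 5.09 and 108 CPM. Fabp5, a fatty acid binding protein, had 81.4% of its AdipoΔ/Δ UMIs in 5 members and a ratio of 1.16 (0.687 to 1.93) in the stricter set. Apoe was lower, at 1604 and 1037 CPM (0.646, 0.591 to 0.706).

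**Figure D4:**
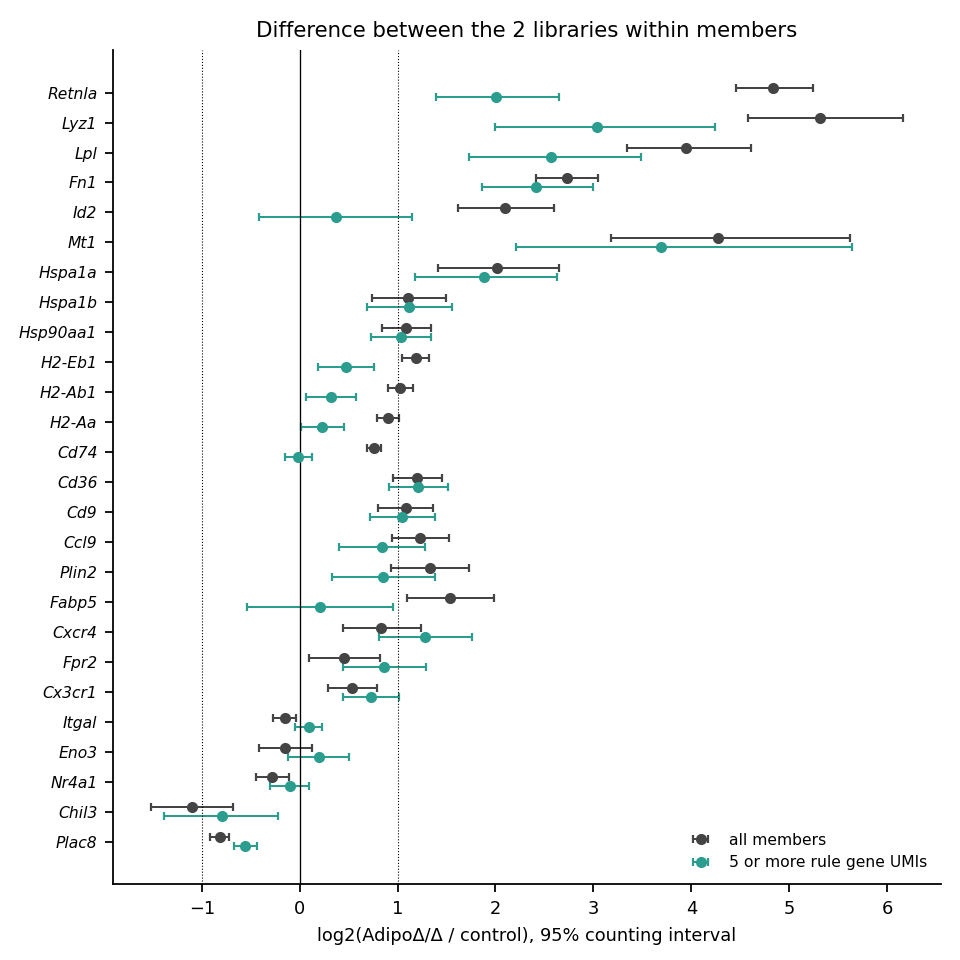
log2 ratio of AdipoΔ/Δ over control (x axis) with 95% counting intervals for 26 genes, in all members (grey) and in members with 5 or more UMIs of the rule genes (green); dotted lines are 2-fold. Cd36, Cd9 and Hsp90aa1 keep ratios of 2.31, 2.06 and 2.05 in the stricter set, whereas H2-Aa, H2-Ab1, H2-Eb1 and Cd74 move to between 0.991 and 1.39.

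The 10 genes furthest up in AdipoΔ/Δ, among those with at least 100 UMIs, were Lyz1, Retnla, Mt1, Lpl, Fn1, Ctsd, Id2, Hspa1a, Gstm1 and Pltp, and several of them rested on few cells. Retnla was at 64.1 and 1832 CPM, and 5 members held 89.6% of its AdipoΔ/Δ UMIs. Lyz1, a second lysozyme gene, was at 16.3 and 649 CPM with 93.6% in 5 members, and Fn1, fibronectin, at 108 and 711 CPM with 79.9% in 5. Retnla, Lyz1, Fcrls and Ecm1 together had 1906 UMIs in AdipoΔ/Δ members, of which 3 members held 635, 586 and 413. The next highest members held 48, 21 and 11, and the highest control member held 5 of 83. These 3 members had 18506, 14389 and 28356 UMIs, 4, 2 and 2 UMIs of the rule genes and 0 UMIs of Itgal. They also held 362, 359 and 585 UMIs of MHC class II genes. Without the 6 members that held at least 10 UMIs of the 4 genes, a step chosen after seeing the data, Retnla was at 213 CPM (ratio 3.32, 2.43 to 4.58), Lyz1 at 46.6 CPM (2.86, 1.49 to 5.71) and Fn1 at 254 CPM (2.37, 1.83 to 3.07). Retnla was also higher in AdipoΔ/Δ in cells that should not make it, at 50.9 and 387 CPM in T cells and 36.6 and 1323 CPM in B cells. The part of free or doublet RNA in these differences was not tested.

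Over 50% of the AdipoΔ/Δ UMIs lay in 5 members also for Ctsd (51.2%), Id2 (52.2%), Gstm1 (56.8%), Pltp (61.1%) and Mt1 (71.7%), and Hspa1a had 41.8% there. Ctsd, the protease cathepsin D, was at 89.1 and 403 CPM and was found in 63 of 250 and 87 of 206 members, with a ratio of 3.21 (2.24 to 4.66) in the stricter set. Ctsd was at 197 and 347 CPM in T cells. Gstm1, a glutathione transferase, was at 52.1 and 193 CPM with an interval of 3.55 to 8.45 for the ratio in the stricter set. A single member held 48 of the 139 AdipoΔ/Δ UMIs of Gstm1, and without the 6 members named above its ratio was 2.59. Mt1, a metallothionein, rested on 7 and 106 UMIs in 5 and 26 members. Pltp, which transfers phospholipids, was at 74.9 and 257 CPM, with a ratio of 1.55 without those 6 members, and Id2, an inhibitor of helix-loop-helix factors, at 51.0 and 218 CPM, but the ratio of Id2 was 1.29 (0.750 to 2.22) in the stricter set.

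Among the remaining lists, 2 of 20 transcription factors were past 2-fold higher in AdipoΔ/Δ members (Maf and Id2), 0 of 13 adhesion genes and 0 of 12 survival genes. Over all 4072 tested genes 2.82% were higher and 0.417% lower. At these shares a count of 0 in a short list does not set its genes apart. Of 7 chemoattractant receptors C5ar1, the receptor for complement C5a, was past 2-fold higher, at 41.3 and 88.7 CPM, but not in the stricter set (1.35, 0.809 to 2.25). There Cxcr4 and Fpr1 were past 2-fold instead, with 2.43 and 2.25. Of 8 cytokine genes 4 were higher and 0 lower. Among these Ccl9, a chemokine of myeloid cells, was at 168 and 395 CPM (1.79 times in the stricter set), and Il1rn, the antagonist of interleukin 1, at 20.6 and 47.1 CPM. In the stricter set 0 of 18 transcription factors, 0 of 13 adhesion genes and 0 of 4 cytokine genes with enough UMIs were past 2-fold.

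MHC class II genes, which present antigen to CD4 T cells, were unevenly spread among members. H2-Aa was at 1136 and 2121 CPM, H2-Ab1 at 896 and 1823 CPM, H2-Eb1 at 746 and 1696 CPM and the invariant chain Cd74 at 2811 and 4750 CPM. Of 7 tested genes of this list 4 were past 2-fold higher in AdipoΔ/Δ and 0 lower. The 11 listed genes summed to 5899 CPM in control and 11040 CPM in AdipoΔ/Δ members. They were higher in AdipoΔ/Δ T cells too, with sums of 608 and 1503 CPM, so the difference was not particular to members. In each library about 1 in 10 members held at least 20 UMIs of class II genes, with 25 of 250 (10.0%) in the control and 22 of 206 (10.7%) in the AdipoΔ/Δ library. These held 90.1% and 92.8% of all class II UMIs. The control ones had a median of 4 rule gene UMIs, and 3 of 25 lacked Itgal, against 18 of 225 other members. The AdipoΔ/Δ ones had a median of 3, and 12 of 22 lacked Itgal, against 15 of 184 others. With 5 or more rule gene UMIs the ratios were 1.17 (1.01 to 1.37) for H2-Aa, 1.25 (1.05 to 1.49) for H2-Ab1, 1.39 (1.14 to 1.69) for H2-Eb1 and 0.991 for Cd74. H2-DMa, which helps to load peptides, had 2.67 (2.13 to 3.37) over all members and 1.50 (1.01 to 2.23) in the stricter set, where 0 of 6 class II genes were past 2-fold. The limit of 20 UMIs was set after seeing the data.

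**Figure D5:**
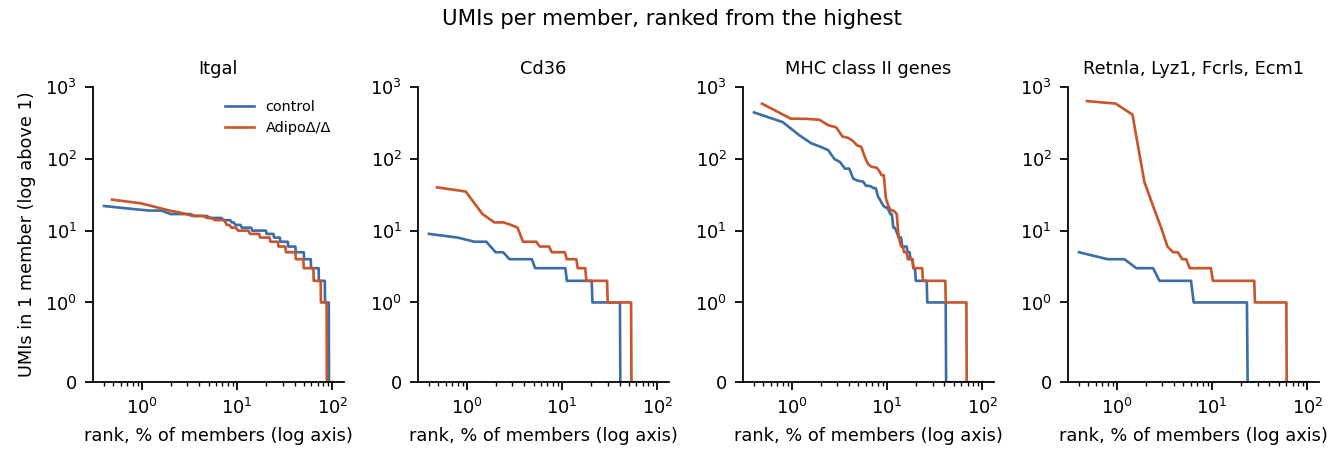
UMIs in single members, ranked from the highest, as a share of all members (x axis, log) against the number of UMIs (y axis, log above 1), for Itgal, Cd36, the MHC class II genes and the sum of Retnla, Lyz1, Fcrls and Ecm1, in the control (blue) and AdipoΔ/Δ (orange) library. Itgal is spread over most members in both libraries, most class II UMIs lie in the top 10% of members in both, and the 4-gene sum is above 400 UMIs in 3 AdipoΔ/Δ members.

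The 10 genes furthest down in AdipoΔ/Δ, among those with at least 100 UMIs, were Hist1h1e, Hps3, Lars2, Chil3, Serpinb2, AY036118, Marcksl1, Gm20594, Prdx5 and Traf1. Lars2 (5015 and 2281 CPM), AY036118 (2243 and 1126 CPM) and Gm20594 (248 and 129 CPM) were lower in T cells too, at 4234 and 1687 CPM, 1760.5 and 983 CPM, and 254 and 127 CPM. Prdx5, a peroxiredoxin, was at 1012 and 539 CPM in members (ratio 0.533) and 149 and 160 CPM in T cells. Hps3, a subunit of a complex that builds lysosome-related organelles, was at 103 and 43.0 CPM, and Serpinb2, an inhibitor of urokinase, at 92.3 and 44.4 CPM. Traf1, an adaptor of TNF receptors, was at 94.5 and 51.3 CPM. Of the classical monocyte genes Chil3 was 0.467 (0.348 to 0.622) of the control, and Plac8 was at 3024 and 1718 CPM (0.568, 0.531 to 0.608), or 0.680 (0.627 to 0.737) in the stricter set.

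For most genes the variance of UMIs among members was little above that of counting noise. After thinning members to 2000 UMIs, the ratio of variance to mean, which is 1 for counting noise alone, had a median of 1.19 over 1238 genes in 183 control members and 1.21 in 132 AdipoΔ/Δ members. It was at least 2 in both libraries for 64 genes. This ratio rises with the mean count, so a value near 1 in a gene with few UMIs does not show that members were alike. The 10 highest were Gm42418, Cd74, Malat1, Lyz2, H2-Ab1, H2-Aa, H2-Eb1, Fth1, Ftl1 and Apoe. Cd74 had ratios of 25.5 and 31.9, Lyz2 of 14.5 and 11.0, and Apoe, a carrier of lipids, of 10.8 and 6.42. Fth1 and Ftl1, the chains of ferritin, had 7.67 and 21.0, and 6.08 and 17.5. The identity genes had lower ratios, with 2.01 and 2.88 for Itgal, 1.77 and 2.02 for Nr4a1 and 1.42 and 1.61 for Eno3. Since their mean counts differ from those of the 10 genes, this does not rank how even their levels were. Apart from mitochondrial and ribosomal protein genes, most member UMIs fell on Gm42418, Tmsb4x, Actb, Lyz2, Fau, Tpt1, B2m, Malat1, Fth1 and Cd74.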

How the data were processed

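Each condition gave 1 droplet library (Chromium 3′ v3.1) of live CD45+ BAT cells. The authors aligned the reads to mm10 and counted UMIs with Cell Ranger, which the file headers give as version 4.0.0, and deposited raw counts per gene and barcode, without normalization. Alignment details and the number of mice are not given in the sources used here. Counts do not separate free RNA from RNA of the cell, and 3′ counts are not comparable between genes.

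From these counts, members and comparison classes were set by UMI thresholds on named genes. The members and the gene lists were chosen with earlier results of these data known. Kept libraries held 2279 and 2016 barcodes with medians of 3678 and 3942 UMIs, and the members 920677 and 721215 UMIs. Doublets were scored with Scrublet in Scanpy 1.11.5 at an expected rate of 2%. It called 8 of 2597 and 6 of 2381 barcodes, 0 of them members, and none was removed. Levels are summed UMIs scaled to a common total (CPM) with Poisson intervals, shares carry Clopper-Pearson and ratios conditional binomial intervals (SciPy 1.17.1), all at 95%. With 1 library per condition no test was made. A fold change of at least 2 served as a description, with at least 50 UMIs, and 0 counts were set to a floor of 3. Interval coverage and thinning were tested on simulated data. edgeR 4.0.16 (TMM) and DESeq2 1.42.0 gave scaling factors only. Gene positions are from GENCODE M21 and upstream sequences from RefSeq (GRCm38.p6). Clec7a and Mx1, 2 of the listed genes, had no row.

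Genes named are the rule genes and label markers, the 10 with most UMIs, 10 per direction between libraries (at least 100 UMIs) and against classical monocytes, the 10 most variable, and examples from the lists. A gene that the naming rule gives is not reported here. Alternatives changed 1 choice at a time: limits on mitochondrial UMIs, detected genes, rule genes and Ly6c2, thinning, doublets, denominators, weighting, scaling and the minimum of UMIs.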

Additional observations from a re-analysis of the deposited data

Results flagged for a closer look

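Barcodes with over 10% mitochondrial UMIs were left out of every comparison. Some of them passed the rest of the gate for Ly6C low monocytes, with 11 of 250 such barcodes in the control and 20 of 309 in the AdipoΔ/Δ library. They stand out only as signal in barcodes that were not used.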

How the results depend on the processing

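Of the values recomputed under the alternatives, 62 of 95 summary values and 783 of 996 gene values stayed within the limit set for them. A further 33 and 212 moved past it. The limit was the counting interval for a share or a ratio between libraries, and 1.5 times for a count. For a gene value against classical monocytes it was the wider limit of 2-fold, and for a median ratio a small fixed step. The cause of the moves was not tested. The share of members in the control and AdipoΔ/Δ library was 9.21% and 7.99% with at least 3 rule gene UMIs and 14.2% and 14.8% with at least 1. With at least 5, chosen after seeing the data, 140 (6.14%) and 112 (5.56%) members were left. A gate applied after thinning to 1000 UMIs gave 143 (6.88%) and 132 (7.51%). As a share of the 3 monocyte classes the ratio between libraries was 1.38. Genes past 2-fold higher in AdipoΔ/Δ numbered 50 with at least 5 rule gene UMIs, 73 with DESeq2 size factors, 30 after thinning to 2000 UMIs, and 406, 41 and 2081 with a minimum of 20, 100 and 1 UMIs. Genes past 2-fold lower numbered 28 without Gm42418, AY036118 and Lars2 in the total, 41 with TMM, 48 with DESeq2 size factors, 42 with equal weight per cell, 9 after thinning, and 89, 5 and 1233 with those minimums. The median log2 ratio was -0.013 without those 3 genes, -0.067 with TMM and -0.091 with DESeq2 size factors. Against classical monocytes a minimum of 20 UMIs gave 408 genes higher and 191 lower. Thinning to 1000 UMIs left 27 genes with a variance of at least 2 times the mean. Cd209a was the 1 gene value marked as reversed, at -1.02 on the log2 scale with at least 5 rule gene UMIs. There it had 0 UMIs in the control and 1 in the AdipoΔ/Δ library. The sign came from the floor of 3 put in place of 0, so no direction can be read. Removal of doublet calls removed no member. Low counts limit genes under 50 UMIs. No paired analysis was possible because each group has 1 library, so that the groups share a single replicate number.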
